A study of Mus musculus with 77 samples.

Results

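Biglycan, decorin, lumican, Sparc, fibronectin, periostin, connective tissue growth factor, matrix Gla protein, follistatin-like 1 and Aebp1 are secreted products of stromal cells, and their 10 genes (Bgn, Dcn, Lum, Sparc, Fn1, Postn, Ctgf, Mgp, Fstl1 and Aebp1) were followed through mouse lung and cultured mouse macrophages. The 10 symbols are 10 of the 24940 in each expression table. They were selected on their TPM in macrophage cultures, expressed in those from Trem2 knock out and DBA/2J mice but not in those from C57BL/6J mice, so that difference is described and not tested.

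The study set newborn mice in hyperoxia against mice in room air. Whole lungs were taken at postnatal day 14 after exposure to 75% oxygen begun within 24 h of birth, and room air pups served as controls. RNA-seq lung groups were Trem2 knock out (KO) hyperoxia (n = 4) and room air (n = 4), DBA/2J (DBA) hyperoxia (n = 4) and room air (n = 4), C57BL/6J (B6) hyperoxia (n = 3) and room air (n = 4), and a second B6 set in hyperoxia (n = 3) and room air (n = 2). Bone marrow-derived macrophages (BMDM), which are macrophages grown from marrow cells in a dish, were kept for 24 h in hyperoxia, marked 95 in the column names, or in room air, with 2 libraries for each of KO, DBA and B6. The KO label names the gene only, so neither the altered part of Trem2 nor the background of that strain is given in the labels used here, and the labels do not say whether libraries of a group come from separate animals or cultures. The p-values below therefore measure the spread between these libraries, which may be technical.

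Small leucine-rich proteoglycans such as biglycan, decorin and lumican bind collagen fibrils and shape their assembly. Matricellular proteins such as Sparc, periostin and connective tissue growth factor sit in the matrix and change how cells read it, with less of a structural role. In lung these genes are made largely by fibroblasts, myofibroblasts and smooth muscle, and many of them are targets of transforming growth factor beta, a growth factor known from lung development and from injury by oxygen.

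Levels are TPM, which correct for the length of a transcript and the depth of a library, so they can be compared between genes. Estimated depth was 14.6 to 47.0 M reads per library in the macrophage table, 18.5 to 41.1 M in the table of KO and B6 lungs, 12.5 to 41.1 M in the table of DBA and B6 lungs, and 7.08 to 8.04 M in the second B6 set. In the same order, the deposited TPM of a library summed to 529220 to 555113, 529199 to 544857, 529339 to 575806 and 572925 to 605692. The main fits used them without rescaling to a common total. The 7 B6 lung columns are the same in both lung tables, so KO and DBA lungs were compared with shared controls. The targeted gene followed its label in the cultures: Trem2 read 252 and 243 TPM in hyperoxic and 236 and 239 TPM in room air KO cultures, against 908 and 917 TPM in hyperoxic and 948 and 962 TPM in room air B6 cultures. In the lungs Trem2 read 1.97, 2.67, 1.96 and 2.24 TPM in hyperoxic KO animals, below the 8.48, 5.97 and 9.85 TPM of hyperoxic B6 animals. In room air Trem2 read 1.13, 1.05, 2.75 and 1.45 TPM in KO lungs and 3.36, 3.45, 3.73 and 2.14 TPM in B6 lungs, and these groups overlapped. The lower but not absent Trem2 signal is what the KO libraries hold, and the labels used here do not say which exons are removed.

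Of the 10 genes, 9 had over 1 TPM in every room air macrophage library of KO and DBA mice. Of these 9, 8 stayed under 1 TPM in every B6 culture library, Fn1 was low but above 1 TPM in 3 of 4 of them, and Lum did not follow the rule. These values chose the genes and carry no test. Summed over the 10 genes, KO cultures held 96.7 to 114 TPM in hyperoxia and 301 to 373 TPM in room air, DBA cultures 91.0 to 110 TPM and a mean of 266 TPM, and B6 cultures 1.40 to 2.88 TPM and 2.92 to 6.18 TPM. All B6 culture libraries carry the date code 20240201 in their column names and all KO and DBA culture libraries carry 20230116, so genotype and date code cannot be told apart between them. KO and DBA cultures share their code with each other. B6 cultures held at most 0.79 TPM of every gene but Fn1 in every library, and the oxygen response of the genes was not tested there.

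Bgn (biglycan, chromosome X, 73483601 to 73495936 in mm10, plus strand) and Fn1 (fibronectin, chromosome 1, 71585473 to 71653234, minus strand) stood highest among the 10 in KO and DBA cultures. Bgn was backed by an estimated 7514 and 6333 reads in room air KO cultures, by 2033 and 1502 reads in room air DBA cultures and by 12 and 28 reads in room air B6 cultures. Fn1, which macrophages are also known to express, read 96.5 and 72.3 TPM in room air KO cultures, 84.1 and 75.6 TPM in room air DBA cultures and 1.06 and 3.52 TPM in room air B6 cultures. The B6 values of Fn1, an estimated 102 and 856 reads, were the highest of the 10 genes in B6 cultures. Ctgf (connective tissue growth factor, chromosome 10, 24595442 to 24598682, plus strand) had an estimated 2782 and 2178 reads in room air KO cultures and 1255 and 969 reads in room air DBA cultures, against 2 and 4 reads in room air B6 cultures and 0 reads in both hyperoxic B6 libraries.

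Lum (lumican, chromosome 10, 97565501 to 97572703, plus strand) was at 0 in every hyperoxic culture library. In room air it read 0.18 and 0 TPM in KO, 0.071 and 0.40 TPM in DBA and 0 and 0.033 TPM in B6 cultures, at most 12 estimated reads in any library. Lum did not reach 1 TPM in any culture library and was not tested there. Mgp (matrix Gla protein, an inhibitor of calcification, chromosome 6, 136872435 to 136875823, minus strand) came close to the B6 level in DBA cultures: 0.54 and 0.75 TPM in hyperoxic DBA and 0.64 and 0 TPM in hyperoxic B6 libraries, where 11 or fewer estimated reads stand behind each value.

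**Figure D1:**
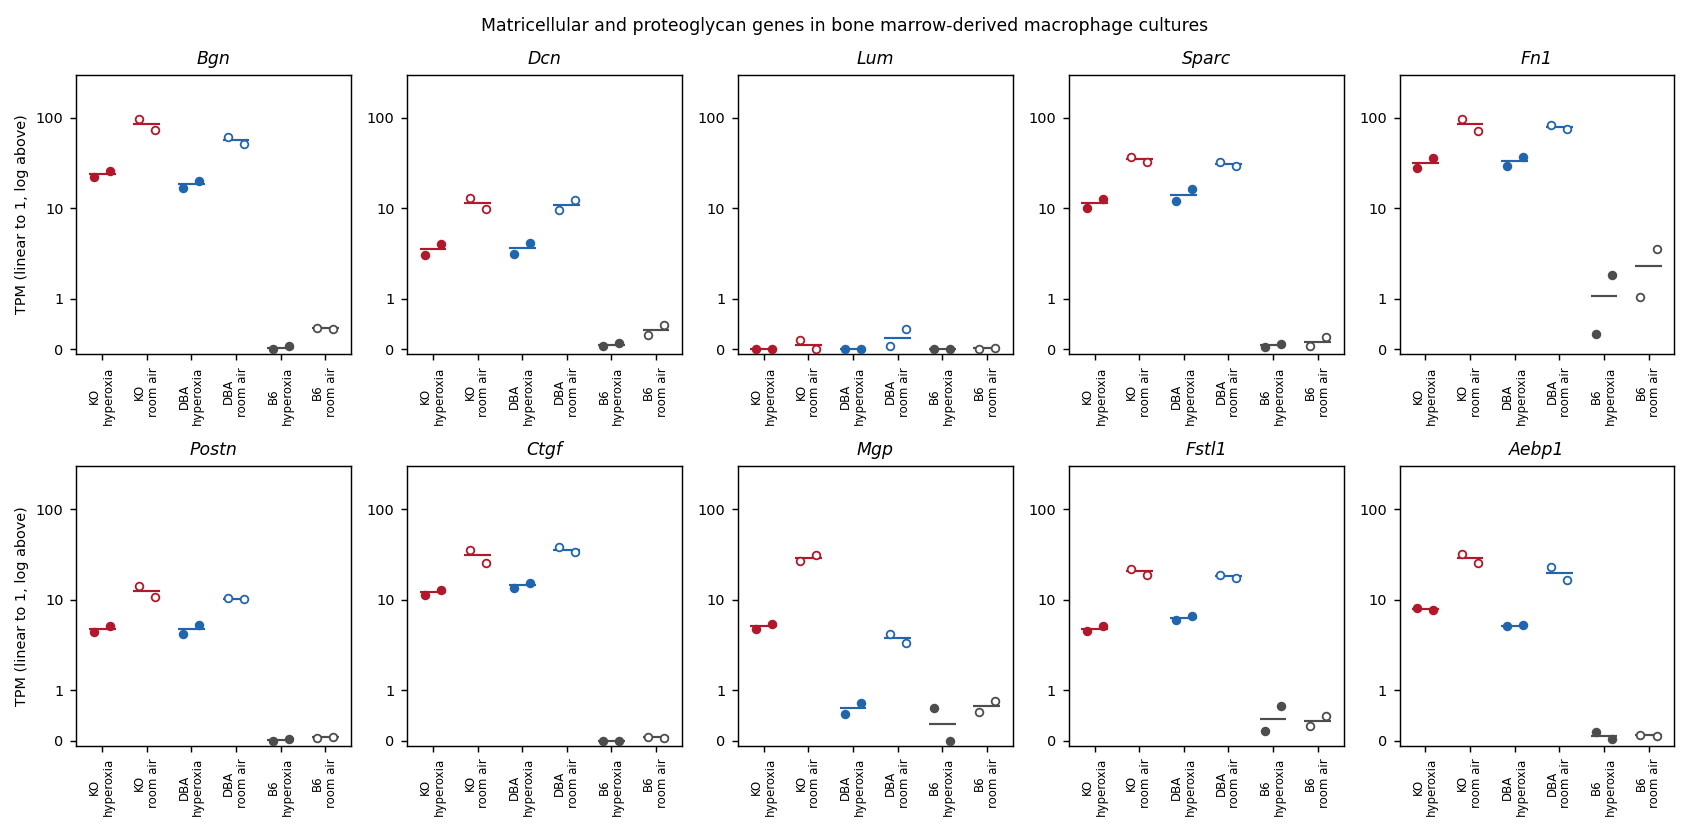
TPM of each of the 10 genes in every macrophage library (points; filled for hyperoxia, open for room air) with the group mean (line); the vertical axis is linear up to 1 TPM and logarithmic above. KO cultures lie above B6 cultures for 9 genes, DBA cultures do so for 8, hyperoxic DBA libraries of Mgp lie among the B6 libraries, and Lum is near 0 throughout. In KO and DBA cultures hyperoxic libraries lie below room air libraries for these 9 genes, a separation whose share over all genes was not counted. In B6 cultures both are low and overlap for several.

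Markers of some other cells moved with these genes. All 12 macrophage markers looked at reached 1 TPM in every culture group, with sums of 19700 to 20100 TPM in hyperoxic and 25300 to 26700 TPM in room air KO cultures, 16900 to 17100 and 21700 to 22100 TPM in DBA cultures, and 21000 to 22200 and 28400 to 29600 TPM in B6 cultures. Summed over 15 fibroblast markers, the level was 45.6 to 59.6 TPM in hyperoxic and 156 to 193 TPM in room air KO cultures, 66.6 to 79.2 and 163 to 184 TPM in DBA cultures, and 0.63 to 0.86 and 1.49 to 1.69 TPM in B6 cultures. Of those 15 markers, 12 averaged at least 1 TPM in room air KO and in room air DBA cultures and 0 did in B6 cultures, and Tcf21 and Mfap4, which mark lung fibroblasts, were at 0 in every culture library.

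Smooth muscle and pericyte markers ran alongside, with sums of 21.2 to 23.1 and 57.8 to 69.1 TPM in hyperoxic and room air KO cultures, 14.3 to 16.9 and 43.8 to 48.7 TPM in DBA and 1.10 to 1.98 and 1.17 to 2.46 TPM in B6 cultures. Endothelial markers summed to 17.7 to 33.8 TPM and epithelial markers to 1.62 to 4.05 TPM over all 12 libraries, mesothelial markers reached at most 1.79 TPM, adipocyte markers 0.12 TPM and lymphocyte markers 0.80 TPM. Neutrophil and progenitor markers were highest in room air KO cultures, at 51.6 to 98.6 TPM, against 5.28 to 7.20 TPM in room air DBA and 26.3 to 46.3 TPM in room air B6 cultures. Unlike the 10 genes, 12 marrow stromal and osteoblast markers, a list that includes Spp1, had their highest sums in B6 cultures. They summed to 2890 to 3130 TPM in hyperoxic and 3780 to 3820 TPM in room air B6 cultures. KO cultures held 863 to 870 and 1050 to 1110 TPM, and DBA cultures 436 to 505 and 483 to 533 TPM. Only 4 of the 12 averaged at least 1 TPM in B6 cultures of either air, and 5 did in KO and in DBA cultures. Sp7, Alpl, Ibsp and Bglap2 were at 0 in both room air B6 libraries. These sums thus come from few genes, and no level of marrow stroma is read from them. The part of these other cells in the levels of the 10 genes was not tested, and in bulk RNA fewer cells of a type and less RNA per cell cannot be told apart.

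**Figure D2:**
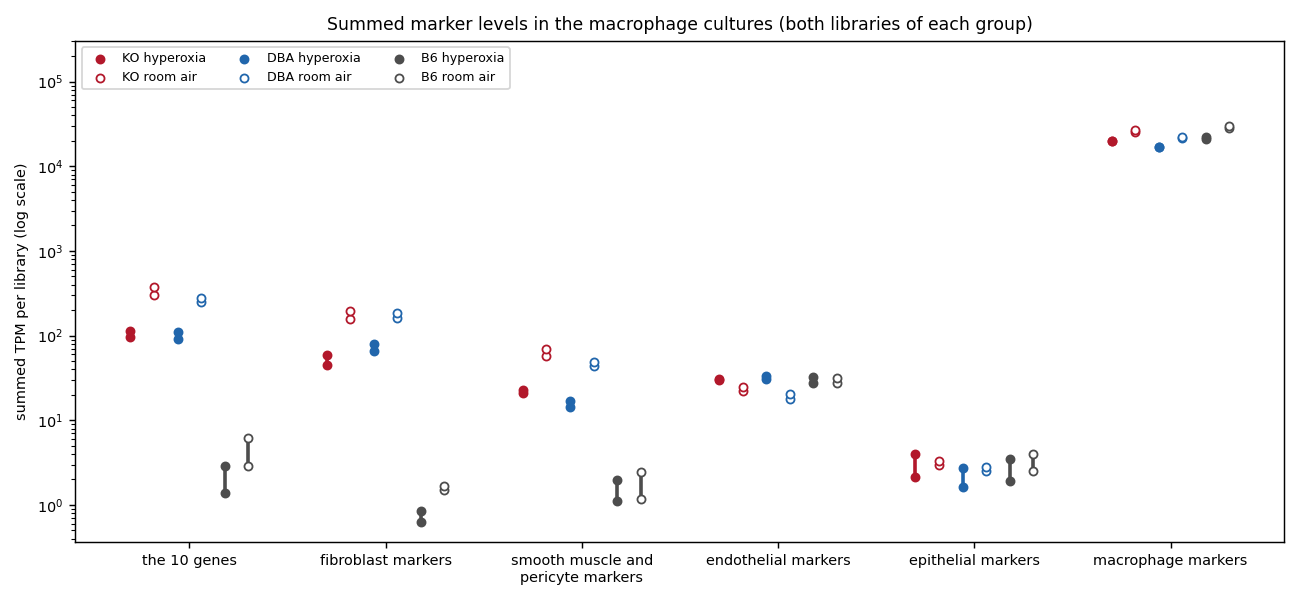
Summed TPM of the 10 genes and of marker lists in both libraries of each macrophage group, on a log axis (filled for hyperoxia, open for room air; a bar joins the pair). The 10 genes, fibroblast markers and smooth muscle markers are low in B6 cultures, whereas endothelial, epithelial and macrophage markers lie in overlapping or nearby ranges in the cultures of all 3 genotypes.

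The genes fell in hyperoxia in both cultures that expressed them, in a limma fit over all 12320 genes that passed a filter on low values. In KO cultures 9 of 9 genes tested fell and 0 rose, beside 16.4% of all genes tested that fell and 6.88% that rose. In DBA cultures 8 of 9 fell and 0 rose, beside 13% that fell and 5.73% that rose. Their median log2 fold change (log2FC, hyperoxia over room air, on the log2(TPM + 1) scale) was -1.54 in KO and -1.36 in DBA cultures, against -0.08 and -0.06 over all genes tested. The 9 passed the filter of 1 TPM through libraries of both airs in KO cultures. Mgp reached 1 TPM in DBA cultures in room air only. The genes were chosen on TPM in these same cultures, with earlier results of these data known. Their counts and medians therefore describe these genes and lend no weight to a fall of the set.

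Among the proteoglycans, Bgn read 22.4 and 25.9 TPM in hyperoxic KO cultures, against 95.9 and 74.1 TPM in KO cultures in room air (log2FC -1.77 ± 0.14 SE, adjusted p = 6.72e-05). In DBA cultures Bgn read 16.7 and 20.0 TPM in hyperoxia, against 61.6 and 51.0 TPM in room air (log2FC -1.56 ± 0.14 SE, adjusted p = 0.000194). Biglycan can also act as a signal to innate immune receptors when it is released from matrix. Dcn (decorin, which binds transforming growth factor beta as well as collagen; chromosome 10, 97479500 to 97518163, plus strand) read 3.06 and 4.06 TPM in hyperoxic KO cultures, against 13.1 and 9.86 TPM in room air (log2FC -1.45 ± 0.18 SE, adjusted p = 0.000636). In DBA cultures it read 3.16 and 4.14 TPM in hyperoxia, against 9.58 and 12.4 TPM in room air (log2FC -1.36 ± 0.18 SE, adjusted p = 0.00128). The hyperoxic and room air libraries did not overlap for either gene in either genotype. With 2 libraries against 2, such a separation also arises by chance. Its share over all genes was not counted, here or in the groups compared below.

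Among the matricellular genes, Sparc (a collagen-binding protein also called osteonectin; chromosome 11, 55394159 to 55420080, minus strand) read 10.2 and 12.5 TPM in hyperoxic KO cultures, against 36.9 and 32.5 TPM in room air (log2FC -1.54 ± 0.15 SE, adjusted p = 0.000196). In DBA cultures it read 12.1 and 16.3 TPM in hyperoxia, against 32.6 and 29.2 TPM in room air (log2FC -1.08 ± 0.15 SE, adjusted p = 0.00154). Postn (periostin, which helps to cross-link collagen; chromosome 3, 54361107 to 54391041, plus strand) followed at a lower level. It read 4.45 and 5.09 TPM in hyperoxic KO cultures, against 14.3 and 10.6 TPM in room air (log2FC -1.21 ± 0.15 SE, adjusted p = 0.000533), and 4.17 and 5.27 TPM in hyperoxic DBA cultures, against 10.5 and 10.0 TPM in room air (log2FC -0.99 ± 0.15 SE, adjusted p = 0.00211). Ctgf, an early target of mechanical signals through YAP, read 11.4 and 12.6 TPM in hyperoxic KO cultures, against 35.8 and 25.7 TPM in room air (log2FC -1.27 ± 0.15 SE, adjusted p = 0.000377). In DBA cultures Ctgf read 13.6 and 15.4 TPM in hyperoxia, against 38.3 and 33.1 TPM in room air (log2FC -1.24 ± 0.15 SE, adjusted p = 0.000654). All 3 genes kept their hyperoxic libraries below their room air libraries, with the same limit.

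Fn1, the adhesive glycoprotein that cells assemble into fibrils, had the least certain fall. It read 28.0 and 35.8 TPM in hyperoxic KO cultures, against 96.5 and 72.3 TPM in room air (log2FC -1.37 ± 0.40 SE, adjusted p = 0.033). In DBA cultures it read 29.6 and 36.6 TPM in hyperoxia, against 84.1 and 75.6 TPM in room air, and this did not pass (log2FC -1.25 ± 0.40 SE, adjusted p = 0.0541). The fit shares 1 estimate of spread over 6 groups, and the B6 libraries of Fn1 differ among themselves: 0.30 and 1.84 TPM in hyperoxia and 1.06 and 3.52 TPM in room air. With the 2 groups of a comparison alone in the fit, Fn1 was lower in DBA cultures too (adjusted p = 0.00205), while leaving out any 1 of the 4 KO libraries ended the call in KO cultures (adjusted p 0.0833 to 0.173).

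Mgp read 4.80 and 5.38 TPM in hyperoxic KO cultures, against 26.4 and 30.9 TPM in room air (log2FC -2.28 ± 0.21 SE, adjusted p = 0.000147), the furthest fall of the 9 on this scale in KO cultures. In DBA cultures Mgp read 0.54 and 0.75 TPM in hyperoxia, against 4.19 and 3.35 TPM in room air (log2FC -1.54 ± 0.21 SE, adjusted p = 0.00143), from at most 35 estimated reads. Fstl1 (follistatin-like 1, a secreted glycoprotein that can bind bone morphogenetic proteins and is needed for mouse lung development; chromosome 16, 37777055 to 37836516, plus strand) read 4.50 and 5.07 TPM in hyperoxic KO cultures, against 22.1 and 18.9 TPM in room air (log2FC -1.89 ± 0.17 SE, adjusted p = 9.52e-05). In DBA cultures it read 5.99 and 6.62 TPM in hyperoxia, against 18.7 and 17.4 TPM in room air (log2FC -1.38 ± 0.17 SE, adjusted p = 0.000725). Aebp1 (which encodes the collagen-binding aortic carboxypeptidase-like protein; chromosome 11, 5861866 to 5872248, plus strand) read 8.01 and 7.67 TPM in hyperoxic KO cultures, against 32.2 and 25.6 TPM in room air (log2FC -1.75 ± 0.15 SE, adjusted p = 9.34e-05). In DBA cultures it read 5.07 and 5.20 TPM in hyperoxia, against 22.8 and 16.5 TPM in room air (log2FC -1.73 ± 0.15 SE, adjusted p = 0.000162). No hyperoxic library of these 3 genes reached a room air library of the same genotype, again without a share over all genes.

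**Figure D3:**
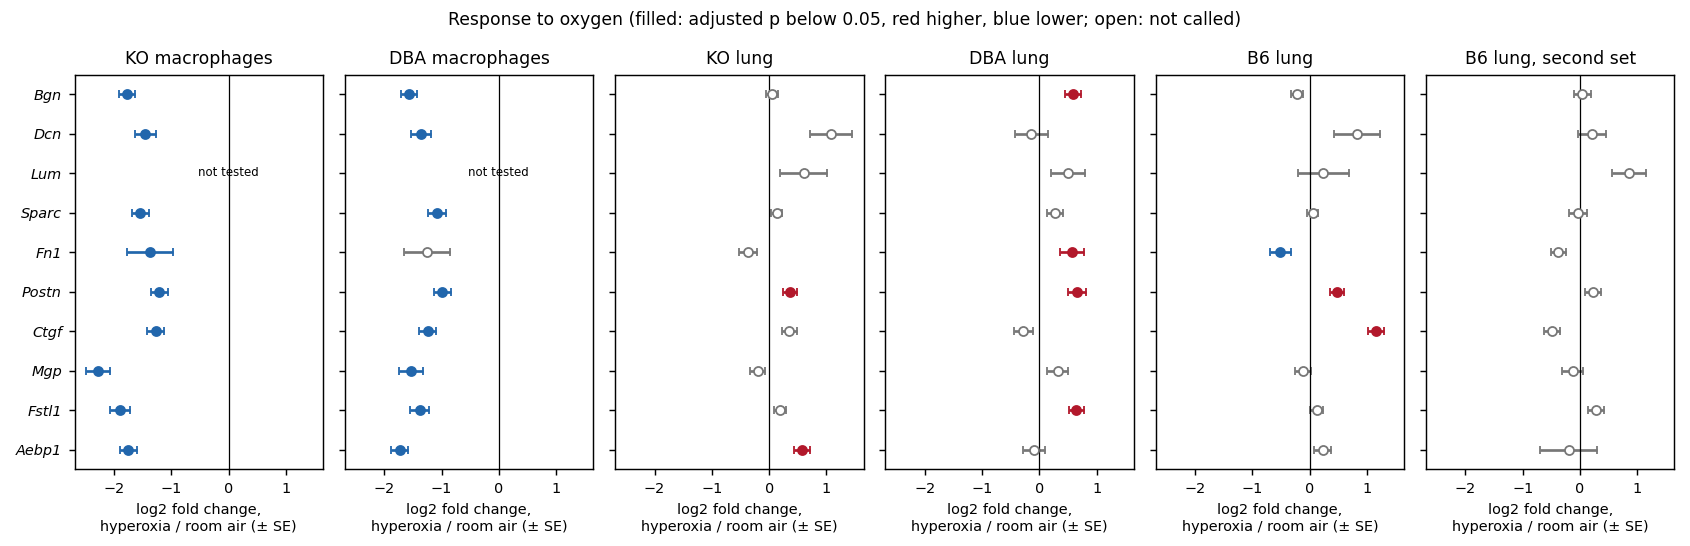
Log2 fold change of each gene, hyperoxia over room air, with its standard error, in KO and DBA macrophage cultures and in KO, DBA and both B6 lung sets; filled points passed adjusted p 0.05 in limma. All tested genes lie left of 0 in the cultures, while the lung panels hold points on both sides.

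Some other stromal genes fell beside them in the cultures. Of 15 fibroblast markers, 12 could be tested and 12 fell in KO cultures and 12 in DBA cultures, with median log2FC -1.45 and -1.10. Col1a2, a chain of type I collagen, averaged 14.0 ± 2.21 TPM in hyperoxic and 53.2 ± 8.52 TPM in room air KO cultures (SD, n = 2 each; log2FC -1.85, adjusted p = 4.82e-05). Pdgfra, a growth factor receptor of mesenchymal cells, averaged 0.83 ± 0.018 TPM in hyperoxic and 4.57 ± 0.90 TPM in room air KO cultures. A gene such as Pdgfra passes the filter through its room air libraries alone and then had to be lower in hyperoxia, and only 8 of the 15 markers averaged at least 1 TPM in hyperoxic KO cultures and 9 in hyperoxic DBA cultures. These counts therefore lend no weight to a fall of the list. Of 10 smooth muscle markers, 2 averaged at least 1 TPM in hyperoxic and 4 in room air cultures of either genotype; an example above the filter in both airs is Acta2, smooth muscle actin, with 9.40 ± 1.19 TPM in hyperoxic and 26.1 ± 3.78 TPM in room air KO cultures. Macrophage markers also fell, 9 of 12 in each genotype, with smaller medians of -0.56 in KO and -0.81 in DBA cultures. Of 12 marrow stromal and osteoblast markers, 5 could be tested. In KO cultures 2 of these 5 fell and in DBA cultures 1 did, with median log2FC -0.30 and -0.07, and 0 rose.

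Within the same families, 8 of 11 other matricellular genes tested fell in KO and 7 of 11 in DBA cultures, and 0 rose; of 28 on the list, 9 averaged at least 1 TPM in hyperoxic and 11 in room air KO cultures. Igfbp7, a secreted binder of insulin-like growth factors, averaged 9.69 ± 0.66 TPM in hyperoxic and 32.2 ± 6.85 TPM in room air KO cultures (log2FC -1.62, adjusted p = 0.000167), and Cyr61, a relative of Ctgf, averaged 6.29 ± 1.22 and 17.8 ± 3.50 TPM (log2FC -1.37, adjusted p = 0.000347). Of 12 other small leucine-rich proteoglycans only 1 averaged at least 1 TPM in hyperoxic KO cultures and 3 in room air. Ogn and Podnl1 were lower in hyperoxic KO cultures, at 0.95 ± 0.14 and 0.75 ± 0.20 TPM, against 2.96 ± 1.23 and 1.86 ± 0.068 TPM in room air, so their hyperoxic means were under the 1 TPM of the filter. Of 11 larger proteoglycan and hyaluronan genes tested, 8 fell in KO and 4 in DBA cultures (8 of 20 on the list averaged at least 1 TPM in hyperoxic and 11 in room air KO cultures), led by Hspg2 (perlecan), with 1.14 ± 0.049 TPM in hyperoxic and 6.03 ± 1.06 TPM in room air KO cultures. Matrix receptors were divided, with 3 of 9 higher and 3 of 9 lower in KO cultures and 2 and 2 in DBA cultures.

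KO and DBA cultures were compared with each other because they share a date code, a comparison added after the values were seen. In room air 3 of 9 genes were higher in KO cultures, beside 10.1% of all genes tested: Mgp (log2FC 2.64 ± 0.21 SE, adjusted p = 1.94e-05), Bgn (0.58 ± 0.14, adjusted p = 0.0156) and Aebp1 (0.54 ± 0.15, adjusted p = 0.0275). In hyperoxia Mgp (log2FC 1.89 ± 0.21 SE, adjusted p = 0.000187) and Aebp1 (0.53 ± 0.15, adjusted p = 0.0349) were higher, 2 of 9 beside 7.82% of all genes tested. Mgp had the largest fold change of the 9 in both airs, and its calls held without any 1 of the 4 libraries compared. Those of Bgn and Aebp1 did not: without room air DBA library 2 or room air KO library 1 the adjusted p was 0.102 and 0.134 for Bgn and 0.163 and 0.206 for Aebp1, and in hyperoxia leaving out any 1 of the 4 libraries gave Aebp1 an adjusted p of 0.12 to 0.157.

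A difference between the oxygen responses of KO and DBA cultures was not detectable at this depth and number of libraries. In limma 0 of 9 genes passed the test of that difference, beside 0.0325% of all genes tested (0.0244% higher and 0.00812% lower in KO). The largest difference on the log2(TPM + 1) scale was that of Mgp, with log2FC -0.75 ± 0.30 SE (adjusted p = 0.71), and Fstl1 and Sparc followed with -0.51 ± 0.23 SE and -0.46 ± 0.21 SE. Mgp averaged 5.09 TPM in hyperoxic and 28.7 TPM in room air KO cultures, and 0.64 and 3.77 TPM in DBA cultures. This scale understates the fall of a gene as low as Mgp in DBA cultures, so no larger fall in KO cultures is read from it. A missed threshold with 2 libraries a group does not show that the responses are the same.

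Over the 12 macrophage libraries, the genes whose log2(TPM + 1) ran most like the mean of the 9 expressed genes were Cald1, Cyp1b1, Cyr61, Serpinh1, Fat1, Acta2, Igfbp7 and Tagln, with Pearson r 0.994 to 0.998 among 9339 candidates. The 9 genes themselves had r of 0.804 for Mgp and 0.981 to 0.997 for the others. Each of the 9 is part of that mean, which raises its r, so these values are not comparable with those of other genes. These libraries differ mainly by genotype, date code and oxygen together, so such r are high for any gene that shares that pattern. Cald1, the actin-binding protein caldesmon, averaged 10.3 TPM in hyperoxic and 28.9 TPM in room air KO cultures, 7.56 and 21.9 TPM in DBA and 0.31 and 0.61 TPM in B6 cultures. Serpinh1, the collagen chaperone Hsp47, averaged 7.72 and 24.7 TPM, 7.96 and 17.4 TPM, and 0 and 0.087 TPM in the same order.

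Promoter sequence was at hand for 5 of the 10 genes (Bgn, Sparc, Postn, Fstl1 and Aebp1), in RefSeq annotation of GRCm38.p6. The 3 sequences printed here belong to genes that fell together in the cultures and differ in what the search found; each gives the 250 bases before the start site, 5′ to 3′ on the gene's strand, with capitals for a match.

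Bgn, chrX:73483351-73483600, plus strand: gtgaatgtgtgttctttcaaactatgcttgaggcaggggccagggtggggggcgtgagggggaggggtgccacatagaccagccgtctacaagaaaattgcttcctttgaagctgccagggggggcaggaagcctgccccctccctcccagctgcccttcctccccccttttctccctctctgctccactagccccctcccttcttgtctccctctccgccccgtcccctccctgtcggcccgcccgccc
Sparc, chr11:55420081-55420330, minus strand: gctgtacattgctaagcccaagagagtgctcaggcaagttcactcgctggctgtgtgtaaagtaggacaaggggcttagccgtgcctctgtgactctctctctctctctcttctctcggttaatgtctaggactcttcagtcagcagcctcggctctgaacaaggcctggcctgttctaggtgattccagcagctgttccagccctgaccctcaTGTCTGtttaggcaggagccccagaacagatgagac
Postn, chr3:54360857-54361106, plus strand: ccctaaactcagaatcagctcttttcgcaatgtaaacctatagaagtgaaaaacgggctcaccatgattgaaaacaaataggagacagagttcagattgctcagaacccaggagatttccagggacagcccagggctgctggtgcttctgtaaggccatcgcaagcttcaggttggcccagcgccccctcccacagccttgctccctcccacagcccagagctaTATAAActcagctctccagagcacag

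Both strands were searched for 4 motifs, namely TATAAA (the box bound by TBP), the SMAD-binding element CAGACA of genes that respond to transforming growth factor beta, the core GGAATG bound by TEAD factors, and the AP-1 site TGAGTCA. Postn alone held TATAAA, from 26 to 21 bases before its start site, a motif that 12.4% of all 32851 promoters of this length hold. Sparc alone held CAGACA, on the reverse strand as TGTCTG from 36 to 31 bases before the start, a motif held by 17.1% of all promoters. GGAATG and TGAGTCA, held by 12.6% and 4.46% of all promoters, were in none of the 5. Such matches describe letters in these windows and no binding.

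Chromatin immunoprecipitation of the transcription factor p53 gave peak lists for KO, DBA and B6 lungs and for KO and B6 macrophages. DBA macrophages had no such list. The KO macrophage samples of this assay are KO by title, while their genotype entry reads C57BL/6J, and the title was followed. In all 10 lists, 4 of macrophages and 6 of lungs with 134 to 4107 peaks each, 0 of 10 genes had a peak within 10 kb of the start site, a distance at which 0.225% to 6.31% of all genes had one. Within 50 kb, Sparc had a peak 13004 bases upstream in hyperoxic B6 macrophages and 36539 bases upstream in hyperoxic KO macrophages, and Aebp1 had peaks 29746 and 22468 bases upstream in hyperoxic B6 macrophages. Fstl1 had a peak 48595 bases upstream in room air B6 lung and Mgp 12214 bases upstream in hyperoxic KO lung. The share of all genes with a peak within that distance was 18.8% in hyperoxic B6 macrophages, 8.41% in hyperoxic KO macrophages, 0.778% in room air B6 lung and 0.942% in hyperoxic KO lung.

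In whole lung all 10 genes were expressed in every group, at levels that spread widely. Sparc and Mgp had the highest means in all 8 lung groups, with group means of 2100 to 3005 TPM for Sparc and 1695 to 3445 TPM for Mgp, and Aebp1 and Lum the lowest, with means of 10.0 to 31.5 TPM and 3.49 to 10.4 TPM. Libraries of Sparc and Mgp overlapped in 6 of 8 groups, so the order of these 2 is not fixed. The lung tables count Sparc on another RefSeq transcript than the macrophage table. Bgn, Postn and Fstl1 came next, followed by Fn1, Ctgf and Dcn. The order in the cultures was another: Fn1 and Bgn led there, and Dcn and Postn were low in both KO and DBA cultures. Mgp averaged 28.7 TPM in room air KO cultures, near Aebp1 with 28.9 and Ctgf with 30.7 TPM, and was the lowest of the 9 in DBA cultures. Lung markers of fibroblasts, endothelium and epithelium were expressed in all 8 groups, with 15 of 15, 10 of 10 and 10 of 10 markers at a mean of 1 TPM or more.

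The genes differed in how tightly libraries of a group agreed. Sparc had a median coefficient of variation of 4.88% over the 8 lung groups and Fstl1 of 9.26%, while Dcn had 31.2% and Lum 42.0%. Dcn and Lum, which lie beside each other on chromosome 10, were highest in the same library in 5 of the 8 groups. In hyperoxic KO lungs that library read 270 TPM of Dcn, where the others had 56.5, 99.2 and 89.4 TPM, and 13.6 TPM of Lum, where the others had 2.57, 8.56 and 6.55 TPM.

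**Figure D4:**
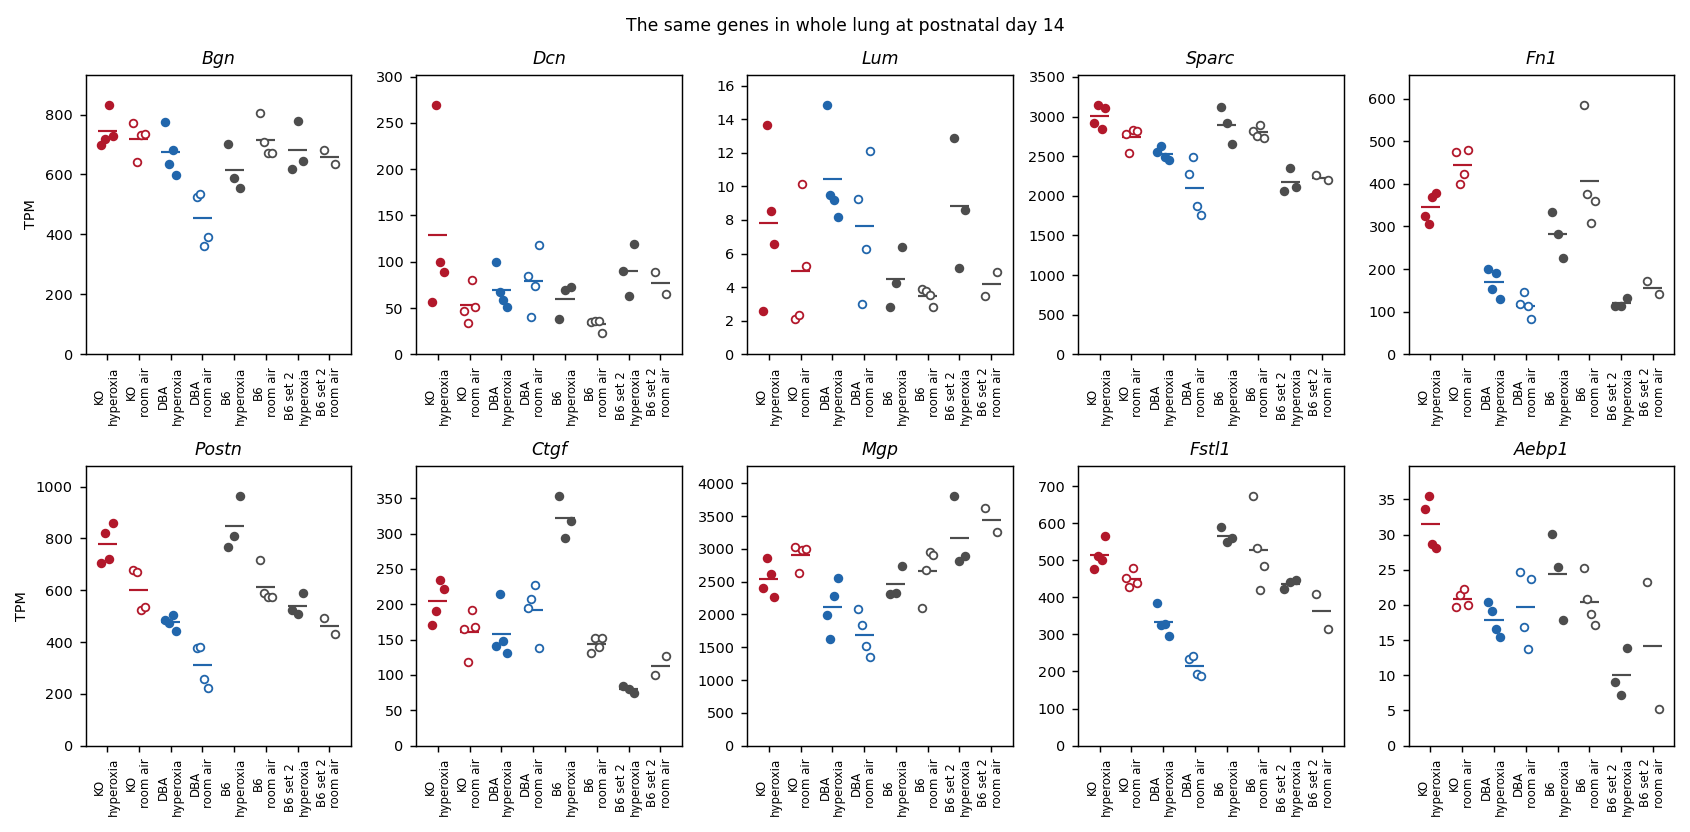
TPM of each of the 10 genes in every lung library (points; filled for hyperoxia, open for room air) with the group mean (line); each panel has its own linear axis from 0. Ctgf is high in the 3 hyperoxic libraries of the first B6 set, at 294 to 353 TPM, and DBA room air lungs are low in Fn1, Postn, Fstl1 and Bgn. Fn1 is also low in the second B6 set.

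In KO lungs hyperoxia raised 2 of 10 genes, Postn and Aebp1, and lowered 0, beside 10.6% of all genes tested that rose and 9.11% that fell, 19.7% in all. Postn read 707, 823, 721 and 858 TPM in hyperoxic KO lungs, against 677, 672, 525 and 535 TPM in room air (log2FC 0.37 ± 0.12 SE, adjusted p = 0.0335). Aebp1 read 33.6, 35.5, 28.7 and 28.1 TPM in hyperoxia, against 19.6, 21.4, 22.3 and 19.9 TPM in room air (log2FC 0.57 ± 0.14 SE, adjusted p = 0.0105). Groups did not overlap for either gene, and within the date code 20230116, which holds all 4 hyperoxic and 2 room air libraries, both were higher (Postn log2FC 0.55, adjusted p = 0.0117; Aebp1 0.55, adjusted p = 0.0184). Postn lost its call without room air library 3 or 4 or hyperoxic library 2 or 4, with adjusted p of 0.087, 0.103, 0.0877 and 0.0967.

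Dcn averaged 129 ± 95.9 TPM in hyperoxic and 53 ± 19.8 TPM in room air KO lungs and did not pass (adjusted p = 0.0515), and Ctgf averaged 204 ± 29.1 and 161 ± 30.9 TPM (adjusted p = 0.0666). Both passed without hyperoxic library 1 (adjusted p 0.017 and 0.0396) or room air library 3 (0.0303 and 0.0283). Within date code 20230116 neither passed, with log2FC 0.74 for Dcn (adjusted p = 0.367) and 0.17 for Ctgf (adjusted p = 0.4). Fn1 averaged 344 ± 35.2 TPM in hyperoxic and 444 ± 39.1 TPM in room air KO lungs, with no overlap between the groups, and did not pass (adjusted p = 0.128). It passed within date code 20230116 (0.0465) and with only KO lungs in the fit (0.0191). The other 5 genes gave adjusted p of 0.246 to 0.757.

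In DBA lungs hyperoxia raised 4 of 10 genes, Bgn, Postn, Fstl1 and Fn1, and lowered 0, beside 18.6% of all genes tested that rose and 12.4% that fell, 31% in all. Bgn read 775, 636, 683 and 600 TPM in hyperoxic DBA lungs, against 524, 535, 363 and 393 TPM in room air (log2FC 0.58 ± 0.14 SE, adjusted p = 0.00515). Postn read 485, 473, 506 and 444 TPM in hyperoxia, against 378, 380, 257 and 224 TPM in room air (log2FC 0.66 ± 0.16 SE, adjusted p = 0.00519). Fstl1 read 384, 325, 328 and 295 TPM in hyperoxia, against 232, 242, 192 and 188 TPM in room air (log2FC 0.64 ± 0.13 SE, adjusted p = 0.00249). These 3 genes kept all hyperoxic libraries above all room air libraries. Fn1 read 201, 153, 191 and 130 TPM in hyperoxia, against 117, 145, 113 and 82.3 TPM in room air, and the groups overlapped (log2FC 0.57 ± 0.21 SE, adjusted p = 0.0495). Fn1 lost its call without room air library 1, 3 or 4 or hyperoxic library 1, 2 or 3, with adjusted p of 0.0625 to 0.147.

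DBA lungs carry 2 date codes with 2 hyperoxic and 2 room air libraries each. Within the later code Bgn (log2FC 0.76, adjusted p = 0.0102), Postn (0.98, adjusted p = 0.00729) and Fstl1 (0.71, adjusted p = 0.00829) passed and Fn1 did not (0.70, adjusted p = 0.0631). Within the earlier code the direction was the same and none of the 4 passed: Bgn 0.41, Postn 0.34, Fstl1 0.57 and Fn1 0.43, with adjusted p of 0.0808 to 0.195. The room air libraries differed by code, with 257 and 224 TPM of Postn in the later code and 378 and 380 TPM in the earlier one. The other 6 genes did not pass in the whole set, with adjusted p of 0.138 to 0.744.

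In the first set of B6 lungs hyperoxia raised Ctgf and Postn and lowered Fn1, 2 of 10 genes beside 16.6% of all genes tested that rose and 1 of 10 beside 26% that fell, 42.7% in all. Ctgf read 353, 294 and 318 TPM in hyperoxic B6 lungs, against 131, 152, 140 and 152 TPM in room air (log2FC 1.16 ± 0.14 SE, adjusted p = 1.29e-05), and every hyperoxic library was far above every room air library. Postn read 767, 809 and 965 TPM in hyperoxia, against 715, 588, 574 and 573 TPM in room air (log2FC 0.47 ± 0.12 SE, adjusted p = 0.00688), with no overlap. Fn1 read 335, 283 and 227 TPM in hyperoxia, against 586, 376, 308 and 359 TPM in room air, and the groups overlapped (log2FC -0.51 ± 0.18 SE, adjusted p = 0.0307). It lost its call without room air library 1 (adjusted p = 0.0749) or hyperoxic library 2 or 3 (0.0619 and 0.155).

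Sex and date code differ within these B6 groups. Within 20221118, which holds 3 hyperoxic and 2 room air libraries, Ctgf (log2FC 1.18, adjusted p = 0.00223) and Fn1 (-0.75, adjusted p = 0.0445) passed and Postn did not (0.38, adjusted p = 0.121). Dcn read 38.4, 68.9 and 72.4 TPM in hyperoxic B6 lungs, against 34.6, 36.1, 36.0 and 23.3 TPM in room air, with no overlap, and did not pass (adjusted p = 0.109). With only B6 lungs in the fit Dcn passed (adjusted p = 0.0178) and Fn1 did not (0.0858), and Postn did not pass under quantile normalization (0.0859). Bgn averaged 616 ± 77.9 TPM in hyperoxic and 714 ± 62.6 TPM in room air B6 lungs with overlapping groups (log2FC -0.22, adjusted p = 0.105). It was called lower under quantile normalization (log2FC -0.38, adjusted p = 0.0249), in males alone (-0.40, adjusted p = 0.0255) and without hyperoxic library 1, the female one (adjusted p = 0.0302). The other 5 genes gave adjusted p of 0.244 to 0.743.

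In the second set of B6 lungs Ctgf was not higher in hyperoxia. It read 84.5, 80.6 and 74.3 TPM in hyperoxic lungs of that set, against 99.3 and 126 TPM in room air, so all hyperoxic libraries were lower (log2FC -0.49 ± 0.14 SE, adjusted p = 0.0791). The difference between the sets was not tested, since they are in separate tables. In limma 0 of 10 genes passed there, beside 4.94% of all genes tested (3.13% higher and 1.81% lower). Lum read 12.9, 5.14 and 8.57 TPM in hyperoxia, against 3.48 and 4.89 TPM in room air, and passed without hyperoxic library 2 (adjusted p = 0.0249). Postn averaged 540 ± 43.5 TPM in hyperoxia and 462 ± 45.2 TPM in room air (log2FC 0.23 ± 0.14 SE, adjusted p = 0.381).

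The share of the 10 genes called in lungs was near that of all genes in KO and DBA lungs and under it in the first B6 set, and with 10 genes a share as low as that of the second B6 set cannot be told from 0. The median log2FC of the 10 genes was 0.27 in KO, 0.41 in DBA and 0.17 in first-set B6 lungs, against 0.01, 0.05 and -0.07 over all genes tested, and 0.00 against 0.01 in the second set. These medians include genes that did not pass and that changed sign under an alternative, such as Sparc, Fstl1, Mgp and Aebp1 in B6 lungs. No shift of the set is therefore read from them.

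Sparc, the most abundant of the set with Mgp, did not pass in the oxygen comparisons of lung on TPM as deposited. It read 2923, 3152, 2838 and 3106 TPM in hyperoxic KO lungs against 2776, 2545, 2824 and 2814 TPM in KO room air lungs. In DBA lungs it read 2551, 2631, 2485 and 2452 TPM in hyperoxia, against 2281, 2492, 1870 and 1758 TPM in room air, and in B6 lungs 3123, 2923 and 2649 TPM, against 2820, 2756, 2891 and 2727 TPM. All hyperoxic KO libraries were above all room air KO libraries, 2 of 4 hyperoxic DBA libraries were above all room air DBA libraries, and the B6 groups overlapped (adjusted p = 0.349, 0.138 and 0.743). Under quantile normalization Sparc was called higher in hyperoxic KO lungs (log2FC 0.33, adjusted p = 0.0317, against 0.13 on deposited TPM) and in hyperoxic DBA lungs (0.38, adjusted p = 0.0399), and also in DBA lungs without room air library 2 (0.0403). Mgp read 2399, 2864, 2614 and 2268 TPM in hyperoxic KO lungs, against 3034, 2635, 2980 and 2995 TPM in KO room air lungs. In DBA lungs it read 1990, 1622, 2289 and 2549 TPM in hyperoxia, against 2079, 1832, 1514 and 1354 TPM in room air. These groups overlapped in both genotypes (adjusted p = 0.277 and 0.197).

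Markers of other cells also moved in lung. Fibroblast markers summed to 4100 to 5070 TPM in hyperoxic and 5400 to 6680 TPM in room air KO lungs, 4640 to 5370 and 3870 to 5470 TPM in DBA lungs, and 3340 to 4510 and 5440 to 6680 TPM in B6 lungs. Of 15 fibroblast markers 1 rose and 4 fell in KO lungs, 1 and 1 in DBA lungs and 1 and 8 in B6 lungs. Macrophage markers summed to 2960 to 3870 TPM in hyperoxic and 5140 to 6630 TPM in room air KO lungs, 989 to 2350 and 822 to 1240 TPM in DBA lungs, and 2030 to 2240 and 2740 to 5320 TPM in B6 lungs. Epithelial markers summed to 35400 to 41100 and 33900 to 40500 TPM in hyperoxic and room air KO lungs, 52500 to 58900 and 42200 to 113000 TPM in DBA lungs, and 36900 to 40700 and 28400 to 38900 TPM in B6 lungs. Lymphocyte markers summed to 33.1 to 47.5 and 56.3 to 115 TPM in hyperoxic and room air KO lungs and 19.4 to 31.9 and 58.2 to 82.2 TPM in B6 lungs. The part of these cells in the values of the 10 genes was not tested.

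Other genes of the same families gave mixed results in lung. Of 8 other small leucine-rich proteoglycans tested, 3 rose and 1 fell in KO lungs, 1 rose and 2 fell in DBA lungs, and 1 rose and 3 fell in B6 lungs. Prelp, a relative of lumican, averaged 31.9 ± 5.97 TPM in hyperoxic and 65.7 ± 7.25 TPM in room air KO lungs (log2FC -1.04, adjusted p = 0.00037) and 10.6 ± 3.21 and 61.0 ± 5.76 TPM in B6 lungs (log2FC -2.45, adjusted p = 7.88e-08). Fmod, fibromodulin, averaged 25.1 ± 3.97 TPM in hyperoxic and 17.4 ± 0.99 TPM in room air KO lungs (log2FC 0.50, adjusted p = 0.00613). Of other matricellular genes, 5 of 21 rose and 1 fell in KO lungs, 6 of 22 rose and 3 fell in DBA lungs, and 2 of 21 rose and 5 fell in B6 lungs. Of the larger proteoglycan and hyaluronan genes, 4 of 17 rose and 0 fell in KO lungs, 8 of 18 rose and 1 fell in DBA lungs, and 3 of 17 rose and 4 fell in B6 lungs; Vcan (versican) averaged 19.5 ± 2.51 TPM in hyperoxic and 9.53 ± 2.21 TPM in room air KO lungs (log2FC 0.98, adjusted p = 0.00446).

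Between KO and B6 lungs in room air 0 of 10 genes passed the adjusted p of 0.05 in limma, beside 0.0769% of all genes tested (0.0512% higher and 0.0256% lower in KO). In hyperoxia Ctgf was lower in KO lungs, with 171, 190, 235 and 222 TPM, against 353, 294 and 318 TPM in B6 lungs (log2FC -0.66 ± 0.14 SE, adjusted p = 0.00191). Bgn was higher in KO lungs, with 699, 719, 833 and 729 TPM, against 703, 589 and 554 TPM in B6 lungs, and the groups overlapped (log2FC 0.28 ± 0.10 SE, adjusted p = 0.0455). These 2 of 10 genes stand beside 37.2% of all genes tested. Bgn lost its call without hyperoxic B6 library 2 or 3 (adjusted p = 0.126 and 0.175) or hyperoxic KO library 2, 3 or 4 (0.0617, 0.128 and 0.069). Hyperoxic KO and hyperoxic B6 lungs share no date code, and the codes are linked only through room air lungs. With date code as a term in the fit, Ctgf was lower in hyperoxic KO lungs (log2FC -1.07, adjusted p = 0.0283) and Bgn did not pass (0.39, adjusted p = 0.277). Bgn also did not pass under quantile normalization (adjusted p = 0.0508) or with only these groups in the fit (0.0729). The date term also carries sex, since KO lungs are all marked male. In 20221230, the only code that holds both genotypes, the B6 libraries are marked female. In males alone, where the genotypes share no date code, Ctgf was lower in hyperoxic KO lungs (log2FC -0.59, adjusted p = 0.0192) and Bgn higher (0.38, adjusted p = 0.0175). Hyperoxic lungs of the second B6 set, not part of these tests, read 74.3 to 84.5 TPM of Ctgf, below all hyperoxic KO libraries. They read 619 to 778 TPM of Bgn, which overlapped hyperoxic KO lungs. The direction for Ctgf thus depended on the B6 set.

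The oxygen response itself differed between KO and B6 lungs for Ctgf, 1 of 10 genes beside 25.3% of all genes tested. A negative KO minus B6 difference, as for Ctgf, passed in 8.98% of all genes tested. The response of Ctgf was smaller in KO lungs by 0.80 ± 0.19 SE on the log2 scale (KO minus B6, -0.80, adjusted p = 0.00652). The call held without any 1 of the 15 libraries (adjusted p 0.000676 to 0.0196) and with date code, which also carries sex here, as a term (-1.01, adjusted p = 0.00551). It rests on the first B6 set; in the second set hyperoxic lungs were lower in Ctgf. The other 9 genes did not pass, with adjusted p of 0.184 to 0.799.

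DBA and B6 lungs differed in 9 of 10 genes in room air, beside 56.4% of all genes tested, and DBA and B6 libraries share no date code, so strain and date code cannot be told apart. Lower in DBA lungs were Fn1, with 117, 145, 113 and 82.3 TPM, against 586, 376, 308 and 359 TPM in B6 lungs (log2FC -1.81 ± 0.21 SE, adjusted p = 4.52e-06), and Fstl1, with 232, 242, 192 and 188 TPM, against 674, 533, 420 and 483 TPM (log2FC -1.29 ± 0.13 SE, adjusted p = 1.85e-06). Postn (log2FC -1.01 ± 0.16 SE), Bgn (-0.67 ± 0.14), Mgp (-0.66 ± 0.18) and Sparc (-0.43 ± 0.14) were lower as well, with adjusted p of 6.18e-05, 0.000735, 0.00602 and 0.0165 and no overlap between the groups. Marker sums differed as well: macrophage markers summed to 822 to 1240 TPM in DBA and 2740 to 5320 TPM in B6 room air lungs, epithelial markers to 42200 to 113000 and 28400 to 38900 TPM, and mesothelial markers, higher in 5 of 6, to 314 to 444 and 172 to 247 TPM. Their part in these differences was not tested. The 9 calls rest on the first B6 set, and the second was not tested against DBA lungs. In room air the second set read 142 to 171 TPM of Fn1 and 2199 to 2261 TPM of Sparc, which overlapped DBA lungs. Its Fstl1 (314 to 410 TPM), Postn (430 to 494 TPM), Bgn (635 to 683 TPM) and Mgp (3265 to 3625 TPM) were above all room air DBA libraries.

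Higher in DBA lungs in room air was Dcn, with 85.1, 40.4, 73.3 and 119 TPM, against 34.6, 36.1, 36.0 and 23.3 TPM in B6 lungs (log2FC 1.18 ± 0.29 SE, adjusted p = 0.00279). Lum (log2FC 0.82 ± 0.30 SE, adjusted p = 0.029) and Ctgf (0.39 ± 0.16 SE, adjusted p = 0.0418) were higher with overlapping groups. The smaller calls depended on single libraries. Ctgf lost its call without any 1 library other than room air DBA library 4 (adjusted p 0.0545 to 0.131), and reached 0.00459 without that one. Lum lost its call without B6 library 3 or 4 (0.0511 and 0.0708) or DBA library 1 or 4 (0.0835 and 0.104), and Sparc without DBA library 3 (0.0506). In males alone Lum, Sparc, Ctgf and Mgp did not pass (adjusted p 0.0914 to 0.139). Aebp1 was the gene that did not pass (adjusted p = 0.746). Room air lungs of the second B6 set, not part of this test, read 64.7 and 88.5 TPM of Dcn, within the range of DBA lungs. They read 3.48 and 4.89 TPM of Lum, also within that range, and 99.3 and 126 TPM of Ctgf, below all room air DBA libraries.

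In hyperoxia 5 of 10 genes differed between DBA and B6 lungs, beside 46.1% of all genes tested. Ctgf was lower in DBA lungs, with 140, 214, 148 and 131 TPM, against 353, 294 and 318 TPM in B6 lungs (log2FC -1.04 ± 0.17 SE, adjusted p = 0.000148). Postn (log2FC -0.82 ± 0.17 SE, adjusted p = 0.00099), Fstl1 (-0.77 ± 0.14, adjusted p = 0.000504) and Fn1 (-0.74 ± 0.22, adjusted p = 0.0138) were lower too. Lum was higher, with 14.9, 9.49, 9.22 and 8.15 TPM in DBA lungs, against 2.82, 4.24 and 6.4 TPM in B6 lungs (log2FC 1.08 ± 0.32 SE, adjusted p = 0.0129). Without hyperoxic B6 library 1, the only one marked female, Fn1 (adjusted p = 0.0703) and Lum (0.0731) did not pass. The 5 calls rest on the first B6 set, and the second was not tested against DBA lungs. In hyperoxia the second set read 74.3 to 84.5 TPM of Ctgf, below all DBA libraries. It read 113 to 131 TPM of Fn1, where DBA lungs read 130 to 201 TPM. Its Lum (5.14 to 12.9 TPM) overlapped DBA lungs, and its Postn (507 to 589 TPM) and Fstl1 (422 to 446 TPM) were above them.

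The oxygen response differed between DBA and B6 lungs for 3 of 10 genes, beside 29.2% of all genes tested (20% with a positive and 9.2% with a negative DBA minus B6 difference). It was larger in DBA lungs for Bgn (DBA minus B6, 0.80 ± 0.20 SE on the log2 scale, adjusted p = 0.00861) and Fn1 (1.07 ± 0.30, adjusted p = 0.0164), and smaller for Ctgf (-1.43 ± 0.23, adjusted p = 0.000548). For Fn1 the 2 strains moved in opposite directions, up in DBA and down in B6 lungs, and Ctgf, which rose in the first B6 set and read lower in hyperoxia in the second, did not pass in DBA lungs, where hyperoxia gave 158 ± 37.6 TPM and room air 192 ± 38.3 TPM (SD, n = 4 each, adjusted p = 0.191). These 3 calls held without any 1 of the 15 libraries. Leaving out room air DBA library 2 added Dcn (adjusted p = 0.0156) and Fstl1 (0.0356), for 5 of 10.

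Over the 15 libraries of KO and B6 lungs, each gene's Pearson r with the mean of all 10 was between -0.28 for Mgp and 0.812 for Dcn, and Fn1 had -0.015. That mean includes the gene itself, which raises its r. Among the genes most like that mean were Man2b2, Fam234a, Mmp2, Prnp, Ctsb, Igf1 and Abhd11, with r of 0.806 to 0.846 among 11501 candidates. These libraries share genotype, oxygen and date code as sources of variation. Mmp2 encodes a secreted protease of matrix.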

How the data were processed

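RNA-seq of mouse whole lung and bone marrow-derived macrophages was used from 4 deposited tables of TPM, which the authors computed per RefSeq transcript. STAR, Bowtie2, HOMER and mm10 are named in the submitters' processing notes, without versions. The deposited peak lists give 1 score per p53 peak, the authors' HOMER value, called on pooled replicates per the file headers. KO macrophage peaks were called against B6 input, per the file headers.

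TPM times transcript length gave whole multiples of 1 unit per library for 100.0% of low values (tolerance 0.15), which gave the estimated reads and depths. Estimated reads serve as a scale only and were not tested as counts.

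limma 3.58.1 in R 4.3.3, with a trend, was run on log2(TPM + 1) over genes that reached 1 TPM in a number of libraries equal to the smallest group size. All groups of a table shared 1 fit, with Benjamini-Hochberg adjustment over all genes tested and a threshold of 0.05. Fold changes on this scale understate those of low genes. The fit was tested on simulated data. Libraries are numbered in column order within a group.

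Alternatives were quantile normalization, a pseudocount of 0.1, no filter, only the compared groups in the fit, each library left out, date code, sex and a replicate block. The 10 genes and all lists were chosen with earlier results of these data known. From other lists, up to 4 called genes with the largest change per comparison could be named. The comparison of KO with DBA macrophages was added after values were seen. A gene among those most alike in lung is not reported here.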

Additional observations from a re-analysis of the deposited data

Results flagged for a closer look

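Among 50 sets of 4 lung libraries (10 genes in 5 groups), 3 held a library far from the others by Dixon's test, where chance flags about 1 in 20. Dcn read 23.3 TPM in room air B6 library 4, and 34.6 to 36.1 TPM in the other 3. Postn read 715 TPM in room air B6 library 1, and 573 to 588 TPM in the other 3. Mgp read 2635 TPM in room air KO library 2, and 2980 to 3034 TPM in the other 3.

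The response to oxygen differed between genotypes, by a test of the difference, for Ctgf in KO against B6 lungs (-0.80 on the log2 scale) and for Bgn (0.80), Fn1 (1.07) and Ctgf (-1.43) in DBA against B6 lungs. Both comparisons use the same B6 libraries, and the first B6 set alone; Ctgf read lower in hyperoxia in the second B6 set. DBA and B6 lungs share no date code, so strain and date code cannot be told apart. With date code as a term the KO minus B6 value of Ctgf was -1.01, and that term also carries sex, as all KO lungs are marked male.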

How the results depend on the processing

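Of 51 gene results past the threshold, 33 stayed past it under every alternative run, and 80 of 599 recomputations lost the call; 0 changed sign. Of the results that did not pass, 49 kept their direction throughout (33 of 633 recomputations passed), and 45 changed sign at least once, 102 recomputations in all, so no fold change is read from them. By setting, the number of the 10 genes called was 1 without a filter in KO lungs, 0 within the earlier date code in DBA lungs, 1 in hyperoxic KO against B6 lungs under quantile normalization, no filter, only these groups or a date term, 2 in males alone for the KO minus B6 response, and 5 and 3 in males alone for DBA against B6 lungs in room air and hyperoxia. For KO against DBA cultures it was 1 with the other pseudocount in room air and in hyperoxia, and in hyperoxia 1 without a filter and 4 with only these groups. Leaving out 1 library gave 1 to 4 in KO lungs, 0 to 1 in the second B6 set, 1 to 3 in hyperoxic KO against B6 lungs, 3 to 6 in hyperoxic DBA against B6 lungs, 3 to 5 for the DBA minus B6 response, and 1 to 3 for KO against DBA cultures in room air and 1 throughout in hyperoxia. A replicate block, in cultures and the second B6 set, rests on numbers that did not pair the libraries (correlation of deviations -0.05 to 0.08); it gave 9 and 9 calls in KO and DBA cultures and 1 in the second B6 set, with Lum at 0.84. No paired analysis was possible in the other lungs because their column numbers restart within each date code. Within 1 kb no gene had a p53 peak, as within 10 kb. The cause of these changes was not tested. Groups of 2 libraries limit the cultures, and low reads limit Mgp, Lum and every value in B6 cultures.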
